A study of Mus musculus with 16 samples.

Results

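The 10 genes used to describe alternatively activated macrophages, Arg1, Chil3, Mgl2, Il4ra, Ccl24, Tgm2, Folr2, Cd163, Il10 and Egr2, were followed in cultured mouse peritoneal macrophages. Their rows were found by gene symbol, and all 10 had an entry among the 15871 of the deposited read count table. The choice of these 10 genes was made with earlier results of these data known. The cells were drawn into the peritoneal cavity of 8-week-old wild-type C57BL/6 mice by an injection of 6% soluble starch, and were then treated in culture for 48 h. The 16 libraries form 4 groups of 4: L_C (low glucose, labelled with mannitol at 27.5 mM as an osmotic control), L_O (low glucose with oxidised low-density lipoprotein, ox-LDL), H_C (glucose at 33 mmol/L) and H_O (both that glucose level and ox-LDL). Macrophages engulf ox-LDL by way of scavenger receptors and become lipid-laden foam cells. The labels write its dose as 50 mg/ml, and they name mannitol for L_C alone. A difference between L_C and another group therefore cannot be told apart from an effect of mannitol, and the comparison of H_O with H_C is the ox-LDL comparison without it. No osmotic control is labelled for L_O. A difference between H_O and L_O therefore cannot be told apart from an effect of osmotic strength. The labels do not say whether the 4 libraries of a group came from separate animals or cultures, so the p-values measure only the spread among these samples, and that spread may be technical.

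Alternative activation is the state that macrophages enter when interleukin-4 or interleukin-13 binds a receptor built on IL-4Rα, the product of Il4ra. Janus kinases then phosphorylate the transcription factor STAT6, which switches on genes such as Arg1 (arginase 1, which turns arginine into ornithine and urea), Chil3 (the secreted chitinase-like lectin Ym1), Mgl2 (the C-type lectin CD301b), Ccl24 (the eosinophil attractant eotaxin-2), Tgm2 (tissue transglutaminase, which crosslinks proteins) and Egr2 (a zinc finger transcription factor). Folr2 (folate receptor β), Cd163 (the haemoglobin-haptoglobin receptor) and Il10 (an anti-inflammatory cytokine) are often counted with the same state, but are known to answer to other signals such as M-CSF, glucocorticoids or microbial ligands. In the peritoneal cavity several of these genes are known to differ between resident and recruited cells. In bulk RNA, fewer cells of a type and less RNA per cell cannot be told apart.

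Library totals lay between 32596640 and 41712885 reads, so that 1 read was worth 0.0246 to 0.0306 CPM (counts scaled to the library total with TMM factors). L_C replicate 4 stood apart: 3.71% of its reads were mitochondrial against 1.48% to 2.3% in the other libraries, and its chi-square per degree of freedom against the other L_C libraries was 93.9 to 97.5, where other pairs of replicates gave 6.48 to 18.5. All 9 macrophage markers examined (Lyz2, Csf1r and others) were present, with a summed level of 17500 to 20900 CPM. Markers of macrophage subsets differed between the groups. The 11 markers of large peritoneal macrophages summed to 223 to 270 CPM in L_C and 215 to 239 in H_C, against 119 to 126 in L_O and 115 to 124 in H_O. The 9 markers of small peritoneal macrophages and monocytes summed to 992 to 1070, 482 to 527, 762 to 797 and 367 to 408 CPM in L_C, L_O, H_C and H_O. Most of that sum was Itgax, at means of 767, 380, 596 and 291 CPM, with Clec12a next at 243, 108, 166 and 83.3. Most of the large peritoneal macrophage sum was F10, at means of 169, 75.7, 158 and 71.7 CPM in L_C, L_O, H_C and H_O. With ox-LDL, 6 of the 11 large peritoneal macrophage markers fell at each glucose level. Gata6 was among the 6 at the low level alone, and F5 at the high level alone. Of the 9 small peritoneal macrophage and monocyte markers, 5 fell at the low level, Ccr2, Ly6c2, Itgax, Clec12a and Cd226. At the high level 3 of them fell, Ccr2, Itgax and Clec12a. Falls made up 13.8% of all entries tested at the low level and 11.5% at the high level. Both sums were lower in the groups where Arg1, Chil3 and Egr2 were lower with ox-LDL, and their part in those falls was not tested. Of 10 T cell and innate lymphoid cell markers, 6 had an entry, and they summed to 1080 to 1220, 575 to 597, 1080 to 1160 and 624 to 703 CPM in L_C, L_O, H_C and H_O. Nearly all of that was Il7r, at means of 1120, 584, 1100 and 657 CPM, while Cd3e was at a mean of at most 1.12 CPM. Il4 and Il13 were not analysed here. The eosinophil list, 3 of 7 with an entry, was led by Siglecf (17.6, 4.2, 22 and 5.24 CPM) and the neutrophil list, 5 of 8, by Csf3r (141, 74.4, 109 and 65.9 CPM). Siglecf was the only 1 of the eosinophil list that was tested. Of 3 neutrophil markers tested, Csf3r and Mmp9 fell with ox-LDL in low glucose and Csf3r alone in high glucose. S100a8, another neutrophil marker, was at 3.67, 4.11, 3.28 and 4.33 CPM in L_C, L_O, H_C and H_O and was not called. Il7r, Siglecf and Csf3r fell with ox-LDL at both glucose levels, together with Arg1, Chil3 and Egr2, and their part in those falls was not tested.

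**Figure D1:**
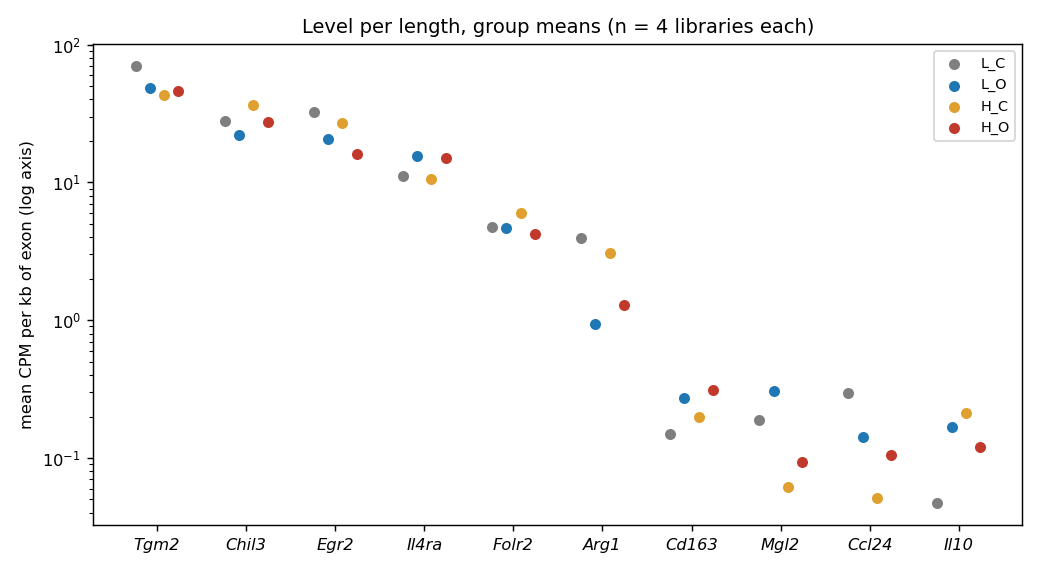
Mean CPM per kilobase of merged exon length (log axis) of each of the 10 genes in L_C, L_O, H_C and H_O, each point the mean of 4 libraries. Tgm2 was the highest in every group, and Cd163, Mgl2, Ccl24 and Il10 lay far below the other 6.

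Per kilobase of exon, Tgm2 was the most abundant of the 10 genes in all 4 groups, at a mean of 70.1 CPM per kb in L_C, 48.4 in L_O, 43.3 in H_C and 45.7 in H_O. The next 2 places were shared by Egr2 and Chil3. In L_C the Egr2 libraries lay between 30.7 and 34.5 CPM per kb and those of Chil3 between 23.1 and 31.3, so both genes overlapped there. In H_O, Chil3 was at a mean of 27.4 and Egr2 at 16, where Egr2 overlapped Il4ra. Il4ra followed at 11.2 in L_C, 15.5 in L_O, 10.5 in H_C and 15 in H_O. Folr2 (4.73 in L_C) and Arg1 (3.93 in L_C) overlapped among the L_C libraries, and Arg1 was at 0.935 in L_O. The last 4 genes, Cd163, Mgl2, Ccl24 and Il10, had group means between 0.0471 and 0.31 CPM per kb, and most of their libraries overlapped. Exceptions were L_C, where the lowest Cd163 library (0.111) was above the highest of Il10 (0.0786), H_C, where the lowest Cd163 library (0.151) was above the highest of Mgl2 (0.139), and H_O, where the lowest Cd163 library (0.217) was above the highest of Mgl2 (0.212) and of Ccl24 (0.183). The plot of level per exon length shows this gap between the first 6 genes and the last 4. These levels assume that each gene's whole merged exon length was counted.

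**Figure D2:**
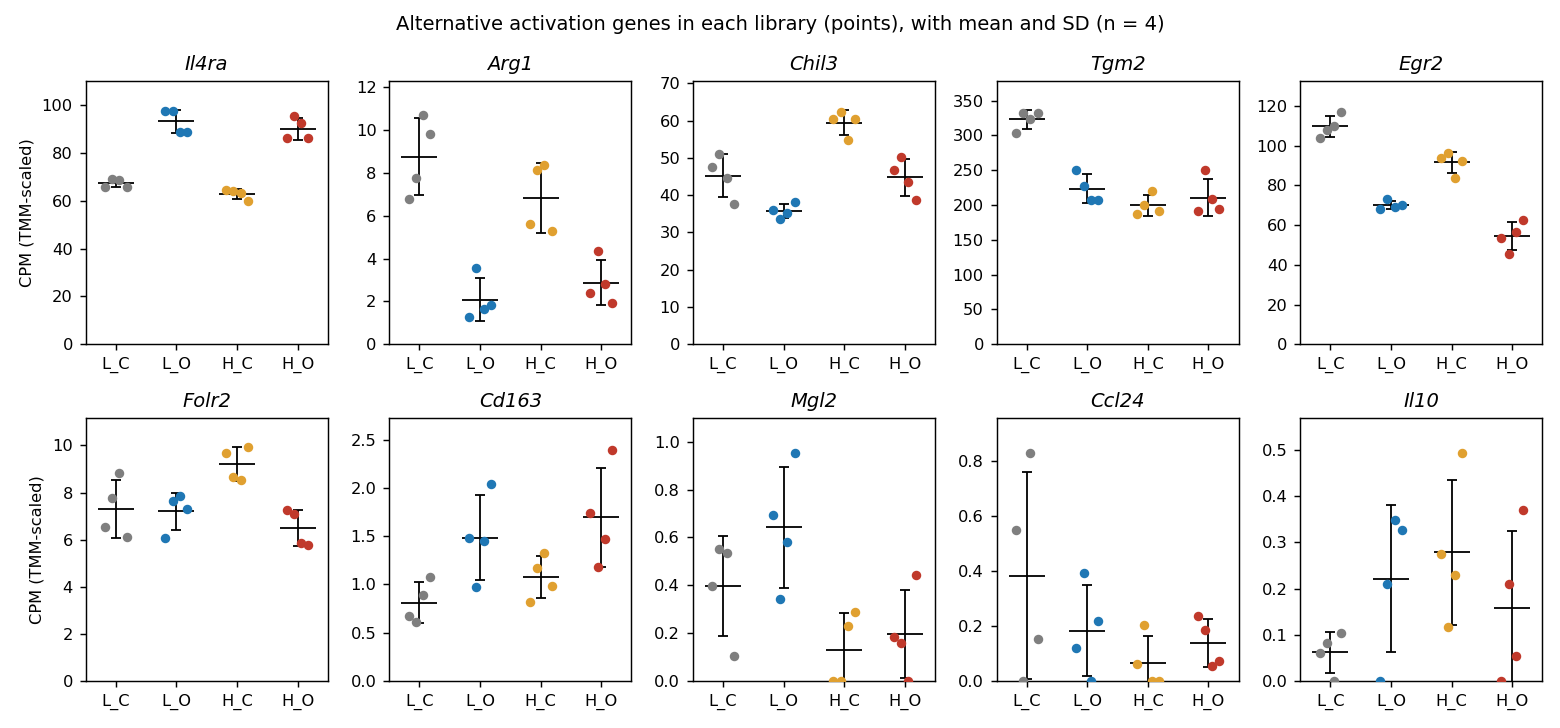
CPM of each of the 10 genes in every library (points) of L_C, L_O, H_C and H_O, with the mean and SD of 4 libraries (bars) and an axis from 0. Il4ra is higher and Arg1 and Egr2 are lower in both groups given ox-LDL, while Tgm2 is high in L_C alone.

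Of the 10 genes, 9 passed the filter on low counts, and Ccl24 did not. With ox-LDL in low glucose (L_O against L_C), 2 of the 9 rose, Il4ra and Cd163, and 4 fell, Arg1, Chil3, Tgm2 and Egr2. Over all 13527 entries tested, 12% rose and 13.8% fell in that comparison, 25.8% in all. With ox-LDL in high glucose (H_O against H_C), Il4ra rose and Arg1, Chil3, Folr2 and Egr2 fell, where 10.4% of all entries rose and 11.5% fell (21.9% in all). Il4ra thus rose, and Arg1, Chil3 and Egr2 fell, in both ox-LDL comparisons, whose libraries are separate. Of all entries, 16% were called in the same direction in both. The median log2 fold change of the 9 genes was -0.02 in low glucose and -0.41 in high glucose, beside 0.000928 and 0.00896 over all entries.

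High glucose alone (H_C against L_C) moved 3 of the 9 genes: Chil3 rose, and Tgm2 and Egr2 fell. Of all entries, 5.03% rose and 7.75% fell there (12.8% in all). With ox-LDL present in both groups (H_O against L_O), Chil3 rose and Egr2 fell, where 2.71% of all entries rose and 3.39% fell (6.11% in all). The 2 glucose comparisons share their libraries with the ox-LDL comparisons, so the values are not independent of those above. Whether the ox-LDL effect differed with glucose was tested as an interaction, which none of the 9 genes passed and which 2 of all 13527 entries did (0.0148%, with 0.00739% in each direction). Without adjustment, 2 of the 9, Tgm2 and Folr2, had an interaction p under 0.05. DESeq2 called 1 of them, Tgm2, and limma-voom called 0. Of all 13527 entries, 1162 had an interaction p under 0.05 without adjustment, DESeq2 called 95 and limma-voom 0.

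**Figure D3:**
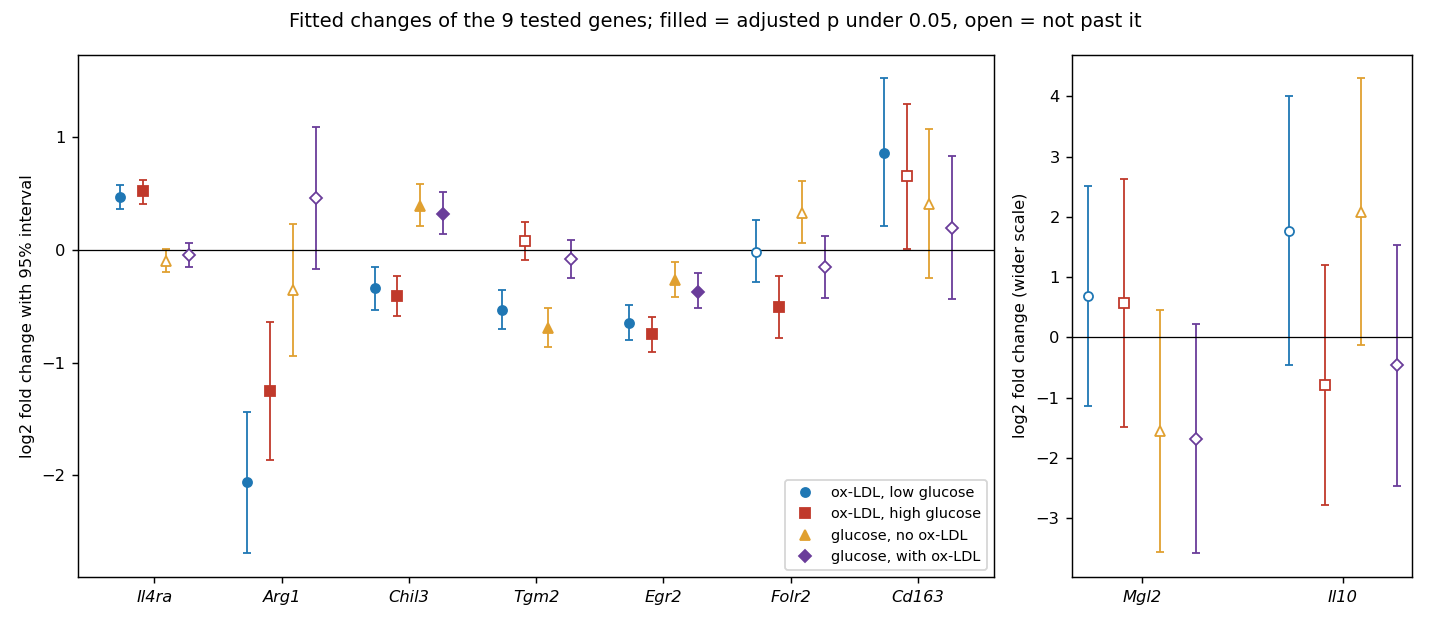
Fitted log2 fold change with its 95% interval for the 9 tested genes in the 4 pairwise comparisons, with filled markers for an adjusted p under 0.05 and a wider axis for Mgl2 and Il10. Arg1 has the largest falls under ox-LDL among the called genes, and Il4ra and Egr2 have the narrowest intervals.

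Il4ra, which encodes the shared signalling chain of the interleukin-4 and interleukin-13 receptors, had the most uniform rise of the 10. Its L_C libraries read 65.8, 69.3, 68.7 and 65.9 CPM and its L_O libraries 97.5, 97.6, 88.9 and 89. The H_C libraries read 64.4, 64.2, 63.3 and 60 CPM and the H_O libraries 86.4, 95.6, 92.5 and 86.3. Every library given ox-LDL was above every library without it. The gene rose by 0.47 ± 0.0497 (SE) on the log2 scale in low glucose, a 1.38-fold rise (adjusted p = 1.09e-06), and by 0.52 ± 0.0497 in high glucose, a 1.43-fold rise (adjusted p = 3.17e-07). The difference between these 2 effects was 0.05 log2 units, with a 95% interval of -0.1 to 0.2 (adjusted p = 0.884). Glucose made a difference of -0.1 (interval -0.2 to 0.01, adjusted p = 0.22) without ox-LDL and of -0.05 (interval -0.15 to 0.06, adjusted p = 0.672) with it. All 17 alternative analyses of each ox-LDL comparison kept the call. Il4ra lies on chromosome 7 (mm10 chr7:125552120-125579474, plus strand), where the annotated gene Gm44876 overlaps it on the other strand. The strand setting of the authors' counting was not given in the sources used here, so reads of the pair cannot be told apart.

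The other genes of this receptor pathway did not rise with Il4ra. Of 15 genes for the interleukin-4 and interleukin-13 receptor chains, Janus kinases, STAT6 and its regulators, all tested, Il4ra was the only one that rose with ox-LDL in low glucose, and 8 fell. Without L_C replicate 4, 2 rose, and with no scaling beyond library totals 5 fell. In high glucose 1 rose and 5 fell. Those 5 became 3 with no scaling, and also without H_C replicate 1, H_C replicate 4 or H_O replicate 4. Il13ra1, the chain that pairs with IL-4Rα to bind interleukin-13, went from 79.1 ± 6.06 to 52.1 ± 2.86 CPM in low glucose (SD, n = 4), a log2 change of -0.6 (adjusted p = 1.31e-06), and changed by -0.33 in high glucose (adjusted p = 0.0011). Ptpn6, the phosphatase SHP-1 that dampens cytokine receptor signals, fell from 548 to 307 CPM (-0.84, adjusted p = 3.25e-08) and from 365 to 270 (-0.44, adjusted p = 8.26e-05). Irs2, an adaptor of the interleukin-4 receptor, changed by -0.45 (adjusted p = 0.000246) and -0.33 (adjusted p = 0.00392). Stat6 itself was at 226, 228, 230 and 226 CPM in L_C, L_O, H_C and H_O, with an adjusted p of 0.89 and 0.696 for ox-LDL. With high glucose alone 6 of the 15 fell, Ptpn6 again among them (-0.59, adjusted p = 2e-05), and these 6 became 3 with upper-quartile factors, no scaling or only the 8 libraries compared, and without H_C replicate 1 or H_C replicate 3. With ox-LDL present, glucose moved 0 of the 15 by edgeR, where 2 had an unadjusted p under 0.05, DESeq2 called 1 and limma-voom 0. Of all 13527 entries, edgeR called 826 there, 2662 had an unadjusted p under 0.05, DESeq2 called 1211 and limma-voom 848.

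Arg1, the arginase that competes with nitric oxide synthase for arginine, had the largest change of the called genes. Its L_C libraries read 6.77, 7.79, 10.7 and 9.83 CPM and its L_O libraries 1.27, 3.56, 1.65 and 1.85. The H_C libraries read 5.61, 8.12, 8.37 and 5.28 CPM and the H_O libraries 2.4, 4.36, 2.83 and 1.92. Within each glucose level no ox-LDL library reached a library without ox-LDL, although the spread was wide, with a coefficient of variation of 48.8% in L_O. Libraries without overlap were seen for 26.1% of all entries in the low glucose comparison and 29.5% in the high glucose one. Arg1 fell by 2.06 ± 0.296 on the log2 scale in low glucose, to a level 4.18-fold lower (adjusted p = 3.58e-05), and by 1.25 ± 0.288 in high glucose, to a level 2.38-fold lower (adjusted p = 0.0037). The fall in low glucose kept its call in all 17 alternatives, with log2 values between -2.46 and -1.89. The interaction was 0.81 ± 0.407 with a 95% interval of -0.05 to 1.67 (adjusted p = 0.616), so these data do not show that the fall differed with glucose. Glucose itself made a difference of -0.36 without ox-LDL (adjusted p = 0.453) and 0.46 with it (adjusted p = 0.44). Counts of 42 to 382 reads per library stand behind these values. Arg1 is on chromosome 10 (mm10 chr10:24915221-24927484, minus strand).

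The 21 tested genes of arginine and polyamine metabolism include Arg1 itself, which is counted among the falls with ox-LDL below. In low glucose 7 rose and 4 fell with ox-LDL, and 7 fell without L_C replicate 4. In high glucose 6 rose and 5 fell. Slc7a2, a cationic amino acid transporter that imports arginine, fell from 84.9 to 41.1 CPM in low glucose (-1.05, adjusted p = 8.11e-11) and from 90.5 to 51.8 in high glucose (-0.81, adjusted p = 2.06e-09). Ass1, which makes arginine again from citrulline, fell from 29.6 to 10.7 CPM (-1.47, adjusted p = 3.38e-06) and from 15.7 to 7.01 (-1.17, adjusted p = 6.33e-05). Nos2, the inducible nitric oxide synthase and a marker of the opposite activation state, was at 3.26 CPM in L_C and 0.387 in L_O (-3.08, adjusted p = 0.00254), and its difference in high glucose was -0.76 (adjusted p = 0.463). Polyamine genes were found on both sides. Paox, a polyamine oxidase, rose by 0.69 (adjusted p = 1.53e-07) and 0.58 (adjusted p = 1.53e-06). Smox, the spermine oxidase, rose by 0.41 (adjusted p = 0.00593) and 0.69 (adjusted p = 6.83e-05), and Odc1, the ornithine decarboxylase that starts polyamine synthesis, by 0.29 (adjusted p = 0.00553) and 0.33 (adjusted p = 0.00313). Sat1, which acetylates spermidine and spermine, fell from 316 to 243 CPM in high glucose (-0.38, adjusted p = 0.012) and had a difference of -0.21 in low glucose (adjusted p = 0.158). Sms, the spermine synthase, was at 53.4 CPM in H_C and 45.1 in H_O (-0.24, adjusted p = 0.0433), a call lost in 8 of 17 alternatives, among them no scaling (adjusted p = 0.145) and the leave-outs of H_C libraries 1, 2 and 4 and H_O libraries 2, 3 and 4. With high glucose Odc1 fell, from 44.9 to 29.1 CPM without ox-LDL (-0.63, adjusted p = 2.36e-05) and from 54.9 to 36.4 with it (-0.59, adjusted p = 7.94e-05).

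Chil3, whose product Ym1 is secreted in large amounts by alternatively activated mouse macrophages, moved in opposite directions with ox-LDL and with glucose. The Chil3 promoter is shown with the RefSeq sequence of the 250 bases before its start (GRCm38.p6, chr3:106167565-106167814, minus strand), since it was the only gene window of the 6 members matched that held a STAT-type palindrome. The capitals mark that match to TTCNNNGAA, 172 bases before the start, read 5′ to 3′.
Chil3: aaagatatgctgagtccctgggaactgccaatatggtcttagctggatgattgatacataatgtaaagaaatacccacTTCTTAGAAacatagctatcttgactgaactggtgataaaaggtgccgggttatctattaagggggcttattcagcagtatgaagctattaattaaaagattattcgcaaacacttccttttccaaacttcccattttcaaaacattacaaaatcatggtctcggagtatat
The 6 members matched had 11 windows, and Arg1, Ccl24, Tgm2 and Il10 were not matched. Over all 32851 windows of that length searched on both strands, 7.02% held TTCNNNGAA. The spacing known for STAT6, TTCNNNNGAA, was in 0 of the members' windows and in 5.85% of all. A match is a run of letters and not a measured binding site.

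The Chil3 libraries read 47.6, 51.1, 44.6 and 37.7 CPM in L_C and 36.1, 33.7, 35.2 and 38.1 in L_O. They read 60.5, 62.2, 54.7 and 60.4 CPM in H_C and 46.6, 50.3, 43.4 and 38.7 in H_O. H_C stood above all other groups, and L_C and L_O overlapped through L_C replicate 4. The gene fell with ox-LDL by 0.34 ± 0.0883 on the log2 scale in low glucose (adjusted p = 0.0078) and by 0.41 ± 0.0875 in high glucose (adjusted p = 0.00198). It rose with glucose by 0.39 ± 0.0876 without ox-LDL (adjusted p = 0.00585) and by 0.32 ± 0.0882 with it (adjusted p = 0.036). That last call was lost when any of L_O replicates 1 to 4 or H_O replicates 1 to 3 was left out, with an adjusted p of 0.0513 to 0.132. Without L_C replicate 4 the ox-LDL fall in low glucose was -0.42 (adjusted p = 0.000275) and the glucose rise 0.31 (adjusted p = 0.00719). The interaction was -0.07 (adjusted p = 0.91, interval -0.33 to 0.19). In the annotation, 26.9% of the 50-base stretches of Chil3 (mm10 chr3:106147554-106167564) also occur in transcripts of Chil4 or Gm6522, so some reads may have been split or lost. Chil4 was not analysed here. Among the other chitinase-like genes, Chid1 was tested at 20.1, 25.5, 19.1 and 22.6 CPM in L_C, L_O, H_C and H_O, and Chil1 was at most at a mean of 0.248 CPM.

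Tgm2, the crosslinking enzyme that also helps macrophages bind dying cells, was high in L_C and lower in the other 3 groups. Its L_C libraries read 304, 332, 324 and 332 CPM and its L_O libraries 251, 228, 207 and 207. The H_C libraries read 187, 200, 220 and 191 CPM and the H_O libraries 191, 250, 208 and 194. No library of another group reached the lowest of L_C. Tgm2 fell by 0.53 ± 0.0805 with ox-LDL in low glucose (adjusted p = 6.14e-05) and by 0.69 ± 0.0807 with glucose alone (adjusted p = 2.25e-05). Both comparisons share L_C, the group labelled with mannitol, so a level particular to L_C would enter both. Without L_C replicate 4 the values were -0.52 (adjusted p = 5.28e-05) and -0.68 (adjusted p = 1.31e-05). In high glucose ox-LDL made a difference of 0.08 (interval -0.09 to 0.25, adjusted p = 0.576), and with ox-LDL present glucose made a difference of -0.08 (interval -0.25 to 0.09, adjusted p = 0.646).

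Among the 9 genes, Tgm2 had the smallest p for a difference between the 2 ox-LDL effects. The interaction was 0.61 ± 0.114 (interval 0.37 to 0.85), with an unadjusted p of 4.64e-05 and an adjusted p of 0.0775 by edgeR's quasi-likelihood test. DESeq2 gave an adjusted p of 0.000335, and edgeR gave 0.041 without L_C replicate 1, 0.0294 without L_C replicate 4 and 0.0414 without L_O replicate 1. Over all alternatives the adjusted p ran from 0.000335 to 0.189. The interaction also contains L_C, the group labelled with mannitol, so a level particular to L_C would enter it too. Tgm2 is on chromosome 2 (mm10 chr2:158116402-158146436, minus strand), where Rprd1b and Gm20412 overlap it on the other strand. Rprd1b had its own entry, at 27.1 to 35.2 CPM over the 16 libraries.

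With Tgm2, 13 transglutaminase, bridging molecule and apoptotic cell receptor genes were tested. In low glucose 3 rose and 7 fell with ox-LDL, and in high glucose 3 rose and 6 fell. F13a1, the factor XIII transglutaminase subunit, moved the other way from Tgm2 in low glucose, from 19.2 to 44.1 CPM (1.2, adjusted p = 9.77e-10). In high glucose, where Tgm2 was not called, F13a1 rose from 32.7 to 78.2 CPM (1.26, adjusted p = 5.27e-10). F13a1 also rose with glucose alone, by 0.77 (adjusted p = 3.37e-06). Tgm1, the keratinocyte-type transglutaminase, fell by 0.85 in low glucose (adjusted p = 0.00671) and by 0.87 in high glucose (adjusted p = 0.00597). Stab1, a scavenger receptor for phosphatidylserine, rose from 71.4 to 228 CPM (1.68, adjusted p = 7.53e-13) and from 101 to 285 (1.5, adjusted p = 2.22e-12). Mfge8, a bridge between dying cells and phagocytes, fell from 514 to 173 CPM (-1.57, adjusted p = 5.73e-12) and from 527 to 168 (-1.65, adjusted p = 3.01e-12). Axl, a receptor tyrosine kinase for dying cells, resembled Tgm2 in falling with glucose alone, from 405 to 260 CPM (-0.64, adjusted p = 3.54e-05). Unlike Tgm2, Axl also fell with ox-LDL in high glucose, by 0.33 (adjusted p = 0.00414).

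Egr2, an immediate early transcription factor that interleukin-4 induces in macrophages, was lower with ox-LDL and lower with high glucose. RefSeq lists several starts for Egr2, which lies on the plus strand of chromosome 10 (mm10 chr10:67535475-67542188). A pair of its windows outside annotated exons is shown because each held a CArG box, the element bound by serum response factor, whose position is marked in capitals 72 bases before the start. The windows are chr10:67537316-67537565 and chr10:67537619-67537868 (GRCm38.p6, plus strand), read 5′ to 3′.
Egr2 first window: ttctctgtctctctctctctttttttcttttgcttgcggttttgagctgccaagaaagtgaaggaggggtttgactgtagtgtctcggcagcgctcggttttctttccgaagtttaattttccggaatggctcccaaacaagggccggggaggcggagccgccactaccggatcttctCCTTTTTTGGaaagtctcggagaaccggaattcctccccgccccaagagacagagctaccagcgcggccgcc
Egr2 second window: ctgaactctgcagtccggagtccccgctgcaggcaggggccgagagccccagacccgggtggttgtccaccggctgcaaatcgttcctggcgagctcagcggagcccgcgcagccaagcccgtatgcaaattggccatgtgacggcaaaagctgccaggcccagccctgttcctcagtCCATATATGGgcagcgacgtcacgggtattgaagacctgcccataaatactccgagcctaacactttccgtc
A CArG box was in 4 of the members' windows, all of them windows of Egr2 that in part overlap, and in 1.47% of all windows. The binding motif of the EGR proteins themselves, GCGNGGGCG, was in 0 of the members' windows and in 4.7% of all. The AP-1 motif TGANTCA was in 1, a window of Folr2, and in 6.75% of all.

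The Egr2 libraries read 104, 108, 110 and 117 CPM in L_C and 68.3, 73.3, 69.3 and 70 in L_O. They read 93.8, 96.3, 83.9 and 92.3 CPM in H_C and 53.3, 45.6, 56.3 and 62.4 in H_O. The 4 groups did not overlap, in the order L_C, H_C, L_O, H_O from the highest down. Egr2 fell with ox-LDL by 0.65 ± 0.0732 on the log2 scale in low glucose (adjusted p = 2.29e-06) and by 0.75 ± 0.0737 in high glucose (adjusted p = 4.14e-07). It fell with glucose by 0.27 ± 0.0728 without ox-LDL (adjusted p = 0.0217) and by 0.37 ± 0.0737 with it (adjusted p = 0.00471). The glucose fall without ox-LDL was no longer called without H_C replicate 3 (-0.21, adjusted p = 0.0867). The interaction was -0.1 (interval -0.32 to 0.11, adjusted p = 0.829). Libraries without overlap were seen for 17.4% of all entries in H_C against L_C and for 17.7% in H_O against L_O.

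Of 14 tested EGR, NAB and AP-1 genes, 4 rose and 5 fell with ox-LDL in each glucose level, with Egr2 itself among the 5. Egr1, another EGR family member, fell from 9.27 to 2.94 CPM in low glucose (-1.66, adjusted p = 1.09e-05) and from 5.34 to 2.52 in high glucose (-1.09, adjusted p = 0.00106). Egr3, the other family member tested, was at group means of 0.144 to 0.38 CPM and was not called. Atf3, a stress-induced repressor, fell by 0.66 (adjusted p = 1.91e-05) and 0.85 (adjusted p = 1.09e-06). Other genes of the list rose. Dusp6, a phosphatase of ERK kinases, rose from 9.12 to 42.1 CPM (2.21, adjusted p = 3.02e-09) and from 6.44 to 42.8 (2.73, adjusted p = 3.65e-10). Fos, a subunit of AP-1, rose by 1.28 (adjusted p = 2.4e-07) and 1.41 (adjusted p = 7.32e-08). The EGR corepressors differed from each other, since Nab1 rose by 0.28 in low glucose (adjusted p = 0.000874) while Nab2 had a difference of -0.04 (adjusted p = 0.738).

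Folr2, the folate receptor of tissue-resident macrophages, changed in 1 comparison only. Its libraries read 6.52, 7.76, 8.85 and 6.12 CPM in L_C and 6.08, 7.63, 7.85 and 7.29 in L_O. They read 9.7, 8.67, 8.55 and 9.95 CPM in H_C and 7.24, 7.07, 5.86 and 5.78 in H_O. H_C was above H_O in every library, while L_C and L_O overlapped throughout. Folr2 fell with ox-LDL in high glucose by 0.51 ± 0.13 (adjusted p = 0.00819), and the difference in low glucose was -0.02 (interval -0.29 to 0.26, adjusted p = 0.938). The difference between these effects was -0.49 ± 0.184, with an unadjusted p of 0.0168 and an adjusted p of 0.44. The glucose difference without ox-LDL was 0.33 (adjusted p = 0.104) and passed the threshold without L_C replicate 3 (0.44, adjusted p = 0.0409). Folr2 (mm10 chr7:101839988-101857194, minus strand) is overlapped by Gm10602 and Gm45319 on the other strand. Of 15 folate uptake and one-carbon genes, Folr2 itself included, 6 rose and 2 fell with ox-LDL in low glucose. In high glucose 5 rose and 4 fell, and the 5 became 2 or 3 when H_C replicate 1, H_C replicate 4 or any H_O library was left out, while the 4 became 2 without H_C replicate 4. Mthfd1, a cytosolic enzyme of the folate cycle, rose by 0.39 (adjusted p = 8.79e-05) and 0.32 (adjusted p = 0.000649), and Shmt2, the mitochondrial serine hydroxymethyltransferase, by 0.4 (adjusted p = 0.00261) and 0.49 (adjusted p = 0.000474). Shmt1, the cytosolic form, fell in high glucose from 4.87 to 2.99 CPM (-0.71, adjusted p = 0.0122), a call lost without H_C replicate 4 (-0.55, adjusted p = 0.0602), and had a difference of -0.33 in low glucose (adjusted p = 0.244).

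Cd163, the receptor that clears haemoglobin bound to haptoglobin, was low, at 22 to 97 reads per library. Its libraries read 0.674, 0.608, 0.888 and 1.08 CPM in L_C and 1.48, 0.97, 1.45 and 2.04 in L_O. They read 0.823, 1.17, 1.33 and 0.986 CPM in H_C and 1.74, 1.18, 1.47 and 2.39 in H_O. L_C and L_O overlapped, as did H_C and H_O. Cd163 rose with ox-LDL in low glucose by 0.86 ± 0.311 (interval 0.21 to 1.52), with an adjusted p of 0.0494, and the call was lost in 10 of 17 alternatives (adjusted p 0.0257 to 0.166). Among these, it was lost without L_C replicate 1, 2 or 3 (adjusted p 0.109, 0.122 and 0.0673) and without L_O replicate 1, 3 or 4 (0.084, 0.0809 and 0.166). Without L_C replicate 4 it was 1.04 (adjusted p = 0.0303). In high glucose the difference was 0.65 (interval 0.01 to 1.29, adjusted p = 0.152), and the interaction -0.21 (adjusted p = 0.923). Cd163 is on chromosome 6 (mm10 chr6:124304656-124330527, plus strand).

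Genes that handle haem after its uptake, such as Hmox1 and Blvrb, were far more abundant than Cd163 and rose at both glucose levels. Of 10 tested genes for haemoglobin uptake and haem breakdown, 7 rose, Cd163 among them, and 1 fell with ox-LDL in low glucose. The 7 became 4 in a fit of only the 8 libraries compared, and 2 fell without L_C replicate 4. In high glucose 4 rose and 2 fell, and 7 rose in a fit of only the 8 libraries compared. Hmox1, the haem oxygenase, rose from 278 to 534 CPM (0.94, adjusted p = 1.55e-09) and from 274 to 561 (1.03, adjusted p = 6.04e-10). Slc40a1, the iron exporter ferroportin, rose from 11.7 to 36.7 CPM (1.65, adjusted p = 5.07e-08) and from 10.7 to 20.8 (0.97, adjusted p = 3.66e-05). Blvrb, a biliverdin reductase, rose by 0.73 (adjusted p = 1.35e-07) and 0.92 (adjusted p = 8.11e-09). Hp, which encodes haptoglobin, was the gene that fell in both, from 14.6 to 3.59 CPM (-2.02, adjusted p = 8.79e-05) and from 16.9 to 6.27 (-1.43, adjusted p = 0.00191). Cd163 is also known as a glucocorticoid target, and is itself counted in the list of such genes that follows. Of 14 tested genes of that kind, 3 rose and 3 fell with ox-LDL in low glucose and 4 rose and 4 fell in high glucose, of which the 4 that fell became 2 without H_C replicate 2, H_C replicate 4, H_O replicate 2 or H_O replicate 3. Fkbp5, a standard glucocorticoid response gene, rose by 0.65 (adjusted p = 0.00361) and 0.88 (adjusted p = 0.000254), and Klf9, another, fell by 0.95 (adjusted p = 2.35e-07) and 0.99 (adjusted p = 1.26e-07). With glucose, Klf9 rose by 0.55 (adjusted p = 0.000421) and 0.51 (adjusted p = 0.00167).

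Mgl2, Ccl24 and Il10 were at or near the floor of 3 reads (0.0738 to 0.0918 CPM) in many libraries. Mgl2, a lectin of alternatively activated macrophages and some dendritic cells, had 13, 20, 18 and 4 reads in L_C, 23, 13, 20 and 35 in L_O, 0, 0, 9 and 10 in H_C and 7, 6, 0 and 18 in H_O. Both high glucose groups had libraries without a read and both low glucose groups had none. The glucose difference was -1.56 ± 0.954 without ox-LDL (adjusted p = 0.321) and -1.68 ± 0.905 with it (adjusted p = 0.327), and the ox-LDL difference 0.69 (adjusted p = 0.613) and 0.57 (adjusted p = 0.75). Mgl2 (mm10 chr11:70130329-70137550) shares 13.1% of its 50-base stretches with other genes, among them its neighbour Clec10a, which had 198 to 740 reads per library. No change of Mgl2 was detected in the 4 pairwise comparisons, at 0 to 35 reads per library.

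Il10, the cytokine, had 2, 3, 0 and 4 reads in L_C, 0, 8, 12 and 12 in L_O, 9, 4, 9 and 17 in H_C and 0, 8, 2 and 15 in H_O. In CPM every H_C library was above every L_C library. The difference of 2.09 ± 1.05 in log2 units did not pass the threshold (interval -0.12 to 4.3, adjusted p = 0.214), and 3 of the 4 L_C libraries were at or under the floor. The ox-LDL difference was 1.77 (adjusted p = 0.246) in low glucose and -0.79 (adjusted p = 0.632) in high glucose, with an interaction of -2.55 ± 1.42 (adjusted p = 0.673). Ccl24, the chemokine, had 18, 0, 28 and 6 reads in L_C, 4, 15, 0 and 8 in L_O, 2, 7, 0 and 0 in H_C and 9, 7, 2 and 3 in H_O. It was not tested, and 7 libraries were at or under the floor. Il10 is on chromosome 1 (mm10 chr1:131019845-131024974) and Ccl24 on chromosome 5 (mm10 chr5:135569937-135573049). B cell markers, a possible source of Il10 in the peritoneum, summed to at most 2.36 CPM in any library.

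Genes for the receptor and response side of interleukin-10 ranged from Jak1, the kinase bound to the receptor, at 324 to 383 CPM in the group means, to Ddit4 and Cxcl13, under 1 CPM in every group. With Il10 itself, at group means of 0.0618 to 0.279 CPM, the list held 22 tested genes. Of these, 2 rose and 7 fell with ox-LDL in low glucose, and 5 rose and 4 fell in high glucose. Il4ra is in this list and was among the genes that rose at each glucose level. Maf, a transcription factor that drives Il10, rose from 142 to 273 CPM (0.94, adjusted p = 6.57e-08) and from 132 to 232 (0.81, adjusted p = 4.77e-07). Prdm1, the repressor Blimp-1, fell by 0.91 (adjusted p = 8.82e-06) and 0.83 (adjusted p = 3.14e-05). Zfp36, an RNA-binding protein that destabilises cytokine messages, fell by 0.8 (adjusted p = 6.2e-05) and 0.63 (adjusted p = 0.000849). Il10ra, the ligand-binding receptor chain, was at 126 and 117 CPM in L_C and L_O (adjusted p = 0.176) and at 109 and 134 in H_C and H_O, where it rose by 0.3 (adjusted p = 0.000626).

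**Figure D4:**
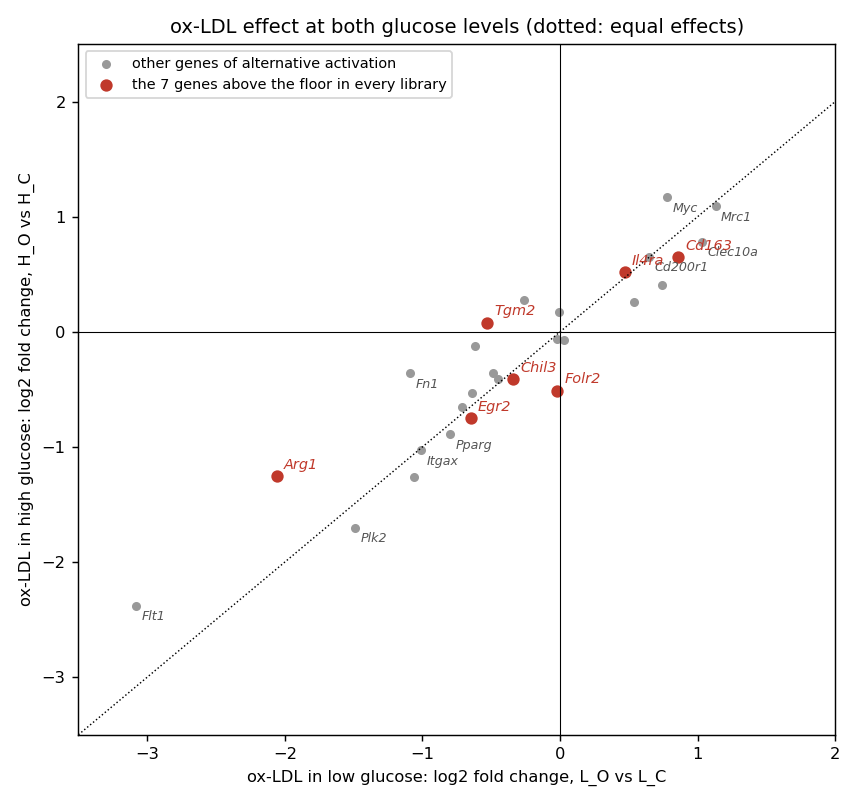
Log2 fold change with ox-LDL in low glucose (x axis) and in high glucose (y axis) for the 7 genes above 3 reads in every library (red) and for 21 of 27 other alternative activation genes with a mean of at least 1 CPM (grey); the dotted line marks equal effects. Flt1 has the largest fall at both glucose levels, and Tgm2 is the red point with values of opposite sign.

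Other genes of alternative activation also split between rises and falls. Of 32 listed, 30 had an entry and 27 were tested. In low glucose 6 rose and 10 fell with ox-LDL, and in high glucose 6 rose and 7 fell. The 6 that rose were Mrc1, Clec10a, Cd200r1, Myc, Tfec and Cdh1 at both glucose levels. Mrc1, the mannose receptor CD206 and a widely used marker of this state, rose from 322 to 702 CPM (1.13, adjusted p = 9.71e-12) and from 257 to 547 (1.09, adjusted p = 1.43e-11). Cd200r1, an inhibitory receptor, rose by 0.65 in both (adjusted p = 8.55e-09 and 9.64e-09). Clec10a, the lectin next to Mgl2, rose from 8.77 to 17.9 CPM (1.03, adjusted p = 1.41e-05) and from 6.56 to 11.3 (0.78, adjusted p = 0.000371).

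Myc, a growth regulator, rose from 7.19 to 12.3 CPM (0.78, adjusted p = 0.00182) and from 4.04 to 9.07 (1.17, adjusted p = 5.72e-05). Tfec, a transcription factor, rose by 0.54 (adjusted p = 6.27e-05) and 0.26 (adjusted p = 0.0268), of which the second call was lost when H_C library 1, 3 or 4 or H_O library 1, 3 or 4 was left out (adjusted p up to 0.0948). Cdh1, which encodes E-cadherin, was at means of 0.141, 0.837, 0 and 1.06 CPM in L_C, L_O, H_C and H_O.

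The genes that fell at both glucose levels were Clec7a, Pparg, Flt1, Matk, Cd83, Itgax and Plk2. Plk2, a kinase gene, fell from 569 to 203 CPM (-1.49, adjusted p = 5.42e-11) and from 471 to 145 (-1.7, adjusted p = 9.67e-12). Itgax, the integrin CD11c, which also marks small peritoneal macrophages and monocytes, fell by 1.01 (adjusted p = 2.85e-10) and 1.03 (adjusted p = 2.49e-10). Clec7a, the β-glucan receptor dectin-1, fell from 1750 to 1070 CPM (-0.71, adjusted p = 3.75e-09) and from 1200 to 766 (-0.65, adjusted p = 1.14e-08). With glucose 9 of the 27 genes fell without ox-LDL and 6 with it. Mrc1 fell by 0.33 (adjusted p = 0.000174) and 0.36 (adjusted p = 0.000136), and Clec7a by 0.54 (adjusted p = 2.07e-06) and 0.48 (adjusted p = 9.44e-06). Retnla, a classic interleukin-4 response gene, had group means of 0.164 to 0.411 CPM and passed in no comparison.

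**Figure D5:**
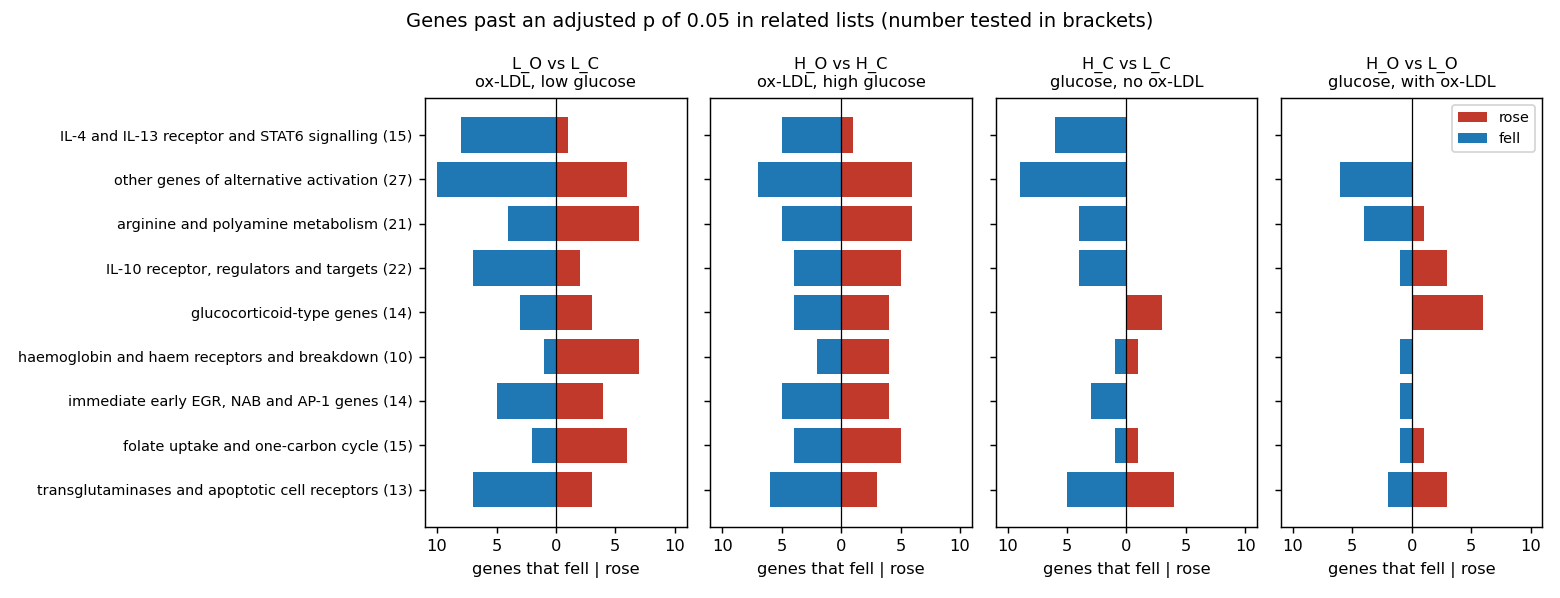
Number of genes past an adjusted p of 0.05 that fell (blue, left) or rose (red, right) in the 9 related lists with at least 10 tested genes, for the 4 pairwise comparisons, with the number tested in brackets. Rises and falls mix in every list with ox-LDL. With glucose alone, all calls are falls in the interleukin-4 signalling, other alternative activation, arginine, interleukin-10 and immediate early lists. In the glucocorticoid list they are all rises, and the remaining lists mix.

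As a description, the tested genes whose profile over the 16 libraries was most like that of a member were found by the root mean square difference of mean-centred log2 CPM, for members whose group means spanned at least 1 log2 unit. For Egr2 these were Ptafr (0.0973 log2 units), the receptor for platelet-activating factor, Atp6v0d2 (0.105), a subunit of the vacuolar proton pump, and Endod1 (0.119). Ptafr had means of 590, 370, 499 and 304 CPM in L_C, L_O, H_C and H_O, the same order of groups as Egr2. For Arg1 they were Best1 (0.366), a chloride channel gene, Tspan13 (0.417) and Cd74 (0.425), the invariant chain of MHC class II, which had means of 3320, 938, 2060 and 1120 CPM. The nearest genes to Mgl2 (Prune2, 1.01) and Il10 (Bbs10, 0.844) were far less alike, and both members had few reads.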

How the data were processed

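RNA of the 16 samples was sequenced after Trizol extraction and an Illumina library preparation, per the labels' protocols. The authors deposited 1 table of raw read counts per gene for all samples, with 15871 entries. HISAT2, DESeq2 and the build mm10 are named without versions or roles, per the submitters' processing notes, while the sources used here do not give the tool used for counting, its annotation or its strand setting. Groups came from the labels. From the counts, edgeR 4.0.16 in R 4.3.3 was used with TMM factors, the filterByExpr filter by group (13527 entries tested, 2344 not) and the two-sided quasi-likelihood F test with a mean for each of the 4 groups (12 residual degrees of freedom). Benjamini-Hochberg adjustment ran over every tested entry of a comparison, and the threshold was an adjusted p of 0.05. Fold changes are given with the standard error and 95% interval of the fit, levels as CPM, and log2 CPM with 2 as the prior count. Exon lengths and shared 50-base stretches came from a mouse annotation of build GRCm38/mm10, and promoter sequences from RefSeq (GRCm38.p6). The script was tested on simulated counts.

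The 10 members and the 11 gene lists were chosen with earlier results of these data known, so their counts are descriptions. Named are all 10 members, up to 4 genes of each list with the smallest adjusted p in each pairwise comparison (of which the text prints a part, with Stat6, Nos2, Sms, Sat1, Shmt1, Myc, Tfec, Cdh1, Egr3, Ddit4, Cxcl13, Nab1, Nab2, Tgm1, Clec10a, Hp, Retnla, Chil1 and the Odc1 and Smox values in other comparisons added after their values were seen), and the 3 genes most like each member whose group means differ by at least 1 log2 unit. Alternatives were RLE and upper-quartile factors, no scaling beyond library totals, no low-count filter, a filter of 1 CPM or more in 4 libraries or more, limma-voom (limma 3.58.1), DESeq2 1.42.0, a replicate block, only the 8 libraries compared, and leaving out each library. Library totals of 32596640 to 41712885 reads set the counting error, and 3 reads are the floor for a level. Correlations of same-numbered libraries' deviations from their group means lay between -0.164 and 0.0666 over 24 pairs, so the numbers were not taken to pair the samples.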

Additional observations from a re-analysis of the deposited data

How the results depend on the processing

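Among the single values of the 10 genes, 774 alternative values kept their direction and side of the threshold, 18 lost the call (Cd163 with ox-LDL in low glucose, Chil3 with glucose beside ox-LDL, and Egr2 with glucose alone), 5 gained it (the Tgm2 interaction, and Folr2 with glucose alone) and 15 changed sign, none of which was called before or after. Leaving out single libraries gave -0.1 to 0.08 for Folr2 with ox-LDL in low glucose (0.06 with no scaling), -0.2 to 1.26 for Mgl2 and -0.01 to 0.12 for Tgm2 with ox-LDL in high glucose, -0.02 to 0.38 for Cd163 with glucose beside ox-LDL, -0.13 to 0.01 for the Chil3 interaction and -0.89 to 0.56 for the Mgl2 interaction (0.05 with limma-voom, 0.17 with the replicate block). With ox-LDL in low glucose, the number of members that rose, 2, became 1 with RLE factors, no low-count filter, limma-voom or only the 8 libraries compared, and lay between 1 and 2 when a library was left out. With glucose alone, leaving out a library gave 1 to 2 members that rose and 1 to 2 that fell. With glucose beside ox-LDL it gave 0 to 1 that rose. For the interaction DESeq2 called 1 member higher, and leave-outs gave 0 to 1. The replicate number as a block gave the same counts of members (2 rose and 4 fell with ox-LDL in low glucose), and 3 of 16 libraries correlated best with their own number. Without scaling, the median log2 change of all entries was 0.0858 and 0.0738 with ox-LDL. With no scaling, the genes that fell with ox-LDL in high glucose became 2 of the interleukin-10 list, 2 of the glucocorticoid list, 2 of the folate list and 1 of the haem list, and in low glucose 1 of the folate list, which was 0 with only the 8 libraries compared. Of the counts over related lists, 158 moved by over 1.5 times and 1866 did not. Depth limits Mgl2, Ccl24 and Il10, of which Mgl2 and Il10 had no value under the filter of at least 1 CPM and in some fits of only the 8 libraries compared.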
